A study of Mus musculus with 27 samples.

Results

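The genes described here are 36 listed genes of cholesterol and fatty acid synthesis, with the sterol regulatory element binding protein (SREBP) and liver X receptor (LXR) genes that control and follow them. Each gene was represented by its brightest single-symbol probe set over the 27 arrays of the series, and 34 of the 36 could be measured this way, among 18194 genes in all. Acat2 and Nr1h2 were not analysed here. The 34 comprised 6 genes of the mevalonate arm, 11 genes of the steps from squalene to cholesterol, 5 genes of SREBP control, 4 genes of sterol transport and LXR, and 8 genes of fatty acid synthesis.

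Cells make cholesterol from acetyl-CoA through mevalonate and squalene, and make fatty acids from the same acetyl-CoA through malonyl-CoA. When membrane sterol is low, SCAP escorts SREBP precursors from the endoplasmic reticulum to the Golgi, where they are cleaved to active transcription factors, and INSIG proteins hold this complex back when sterol is plentiful. Oxysterols that accumulate with sterol activate LXR, which raises the sterol exporters ABCA1 and ABCG1, and dividing T cells are known to draw on both routes for new membrane.

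The arrays measured messenger RNA of sorted T cells from BALB/c mice, 3 arrays for each of 9 groups. From thymus came CD4 single-positive cells that were Foxp3+GFP+ or Foxp3-GFP-, Foxp3 being the lineage factor of regulatory T cells (Tregs), each sorted at high, intermediate and low CD24, a surface protein lost as thymocytes mature. They are called Foxp3+ or Foxp3- and CD24hi, CD24int or CD24lo below, and the design text calls the Foxp3- cells conventional T cells while their source names read Treg. Treg precursors were Foxp3- thymocytes that bore CD25, with no CD24 level given, and Tregs and naive T cells came from lymph node. No age, sex or further treatment was used here, and the labels did not say what animals the replicates came from, so every p-value is set against array-to-array spread that may be technical. In such bulk samples fewer cells of a type and less RNA per cell cannot be told apart.

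Values are log2 of the deposited intensity, and the members' mean levels ran from 3.86 to 10.79 against 5.77 for the median gene. Foxp3 lay between 9.74 and 10.19 on the arrays of the Foxp3+ groups and lymph node Tregs and between 3.31 and 4.37 on all others. Il2ra, which encodes CD25, averaged 8.16 in the precursors and 4.22 to 4.42 in the Foxp3- groups. Cd24a averaged 10.93, 8.21 and 6.00 from CD24hi to CD24lo in Foxp3- cells and 10.34, 9.08 and 7.63 in Foxp3+ cells. At CD24lo it was thus 1.62 higher in Foxp3+ cells (limma adjusted p = 0.00569). Its change over maturation differed between the classes by 2.21 (limma adjusted p = 0.0179). The part of this unequal Cd24a level in comparisons of the classes was not tested. The Foxp3- CD24hi replicate 3 stood apart by liver transcripts: Alb was 11.65 there and 3.49 to 4.23 on the other 26 arrays, the summed intensity of 10 hepatocyte markers was 7952 against 181 and 198 on the other arrays of its group, and the member Scd1 was 8.15 against 3.09 to 5.12. Results that rest on this array are given without it where that changed them. The typical standard error (SE) of a log2 difference between 2 groups was 0.15, and the number of arrays limits the precision.

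Promoter sequences show which members carry the letters that SREBP and its partner NF-Y bind. RefSeq promoters of the build GRCm38.p6 were matched for 28 of the 36 listed genes, as 37 windows of 250 bases before a transcript start. The sterol regulatory element TCACNCCAC, searched on both strands, was found in 1 of the 37 windows (2.7%) and in 1.05% of 32851 promoter windows of all genes. The NF-Y box CCAAT, on either strand, was in 20 of the 37 (54.1%) against 33.8% of all, and the Sp1 box GGGCGG in 25 of the 37 (67.6%) against 32.7% of all. The windows below belong to members that the results return to and that hold an NF-Y box, and to Hmgcs1, whose window held the sterol element. They are written 5′ to 3′ along the gene, with the sterol element and each NF-Y box in capitals (ATTGG is CCAAT on the opposite strand). Capitals in the Fasn window run together where boxes on opposite strands overlap.
Hmgcs1, chr13:119690101-119690350, plus strand: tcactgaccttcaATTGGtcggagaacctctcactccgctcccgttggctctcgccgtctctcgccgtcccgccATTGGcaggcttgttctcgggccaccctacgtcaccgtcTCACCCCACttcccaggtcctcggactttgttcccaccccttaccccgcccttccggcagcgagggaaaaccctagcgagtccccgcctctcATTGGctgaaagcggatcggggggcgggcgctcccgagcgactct
Idi1, chr13:8885356-8885605, plus strand: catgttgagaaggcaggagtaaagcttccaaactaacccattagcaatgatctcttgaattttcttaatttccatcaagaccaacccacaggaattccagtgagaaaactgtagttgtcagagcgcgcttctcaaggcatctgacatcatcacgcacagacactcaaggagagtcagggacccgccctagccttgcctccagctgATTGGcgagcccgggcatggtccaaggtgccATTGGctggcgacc
Cyp51, chr5:4104698-4104947, minus strand: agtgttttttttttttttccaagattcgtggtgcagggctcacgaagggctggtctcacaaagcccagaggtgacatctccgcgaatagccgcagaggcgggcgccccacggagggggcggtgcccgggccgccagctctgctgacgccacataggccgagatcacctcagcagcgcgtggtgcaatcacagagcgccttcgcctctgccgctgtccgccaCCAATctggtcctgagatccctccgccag
Insig1, chr5:28071162-28071411, plus strand: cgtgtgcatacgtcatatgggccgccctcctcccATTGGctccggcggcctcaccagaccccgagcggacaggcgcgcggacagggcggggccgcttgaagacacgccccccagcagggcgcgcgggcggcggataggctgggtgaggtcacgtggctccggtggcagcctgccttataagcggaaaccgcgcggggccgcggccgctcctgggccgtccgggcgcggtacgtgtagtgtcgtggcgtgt
Sc5d, chr9:42264301-42264550, minus strand: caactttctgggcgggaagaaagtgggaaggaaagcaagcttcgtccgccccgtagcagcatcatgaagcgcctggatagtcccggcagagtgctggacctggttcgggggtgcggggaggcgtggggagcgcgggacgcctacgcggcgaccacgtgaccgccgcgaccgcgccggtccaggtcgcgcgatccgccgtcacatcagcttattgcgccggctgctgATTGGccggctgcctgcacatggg
Fasn, chr11:120824548-120824797, minus strand: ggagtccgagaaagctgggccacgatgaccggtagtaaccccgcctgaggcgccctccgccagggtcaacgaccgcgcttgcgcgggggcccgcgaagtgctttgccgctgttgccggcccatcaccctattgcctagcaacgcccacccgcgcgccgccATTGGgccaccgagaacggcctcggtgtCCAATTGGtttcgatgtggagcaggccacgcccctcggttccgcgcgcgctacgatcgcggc
Hmgcs1, a synthase of the mevalonate arm, held the sterol element 137 to 129 bases before its start with 3 NF-Y boxes around it. Fasn held 3 NF-Y boxes, Idi1 held 2, and Cyp51, Insig1 and Sc5d held 1 each. A match describes these letters and is not evidence of binding, and a window without the letters says nothing about the factor.

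Across the 9 groups, 25 of the 34 members differed by limma's moderated F test at an adjusted p under 0.05, where 39.8% of all genes did. By role these were 3 of 6 in the mevalonate arm, 10 of 11 from squalene to cholesterol, 3 of 5 in SREBP control, 3 of 4 in transport and LXR and 6 of 8 in fatty acid synthesis. The range of group means was 3.29 for Scd2, a stearoyl-CoA desaturase, 2.38 for the sterol exporter Abca1, 2.02 for squalene epoxidase (Sqle) and 1.99 for sterol C5 desaturase (Sc5d). Srebf1, Insig2, Hmgcs1, Mvk, Fdps, Msmo1, Nr1h3, Scd1 and Fads2 were not called in this test, with adjusted p from 0.0637 to 0.509. With replicate number as a block Hmgcs1, Mvk, Fdps, Msmo1, Insig2 and Nr1h3 were called as well (adjusted p from 0.000418 to 0.049). Shares of all genes given here and below are from the fit without the block, and none was taken with it.

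**Figure D1:**
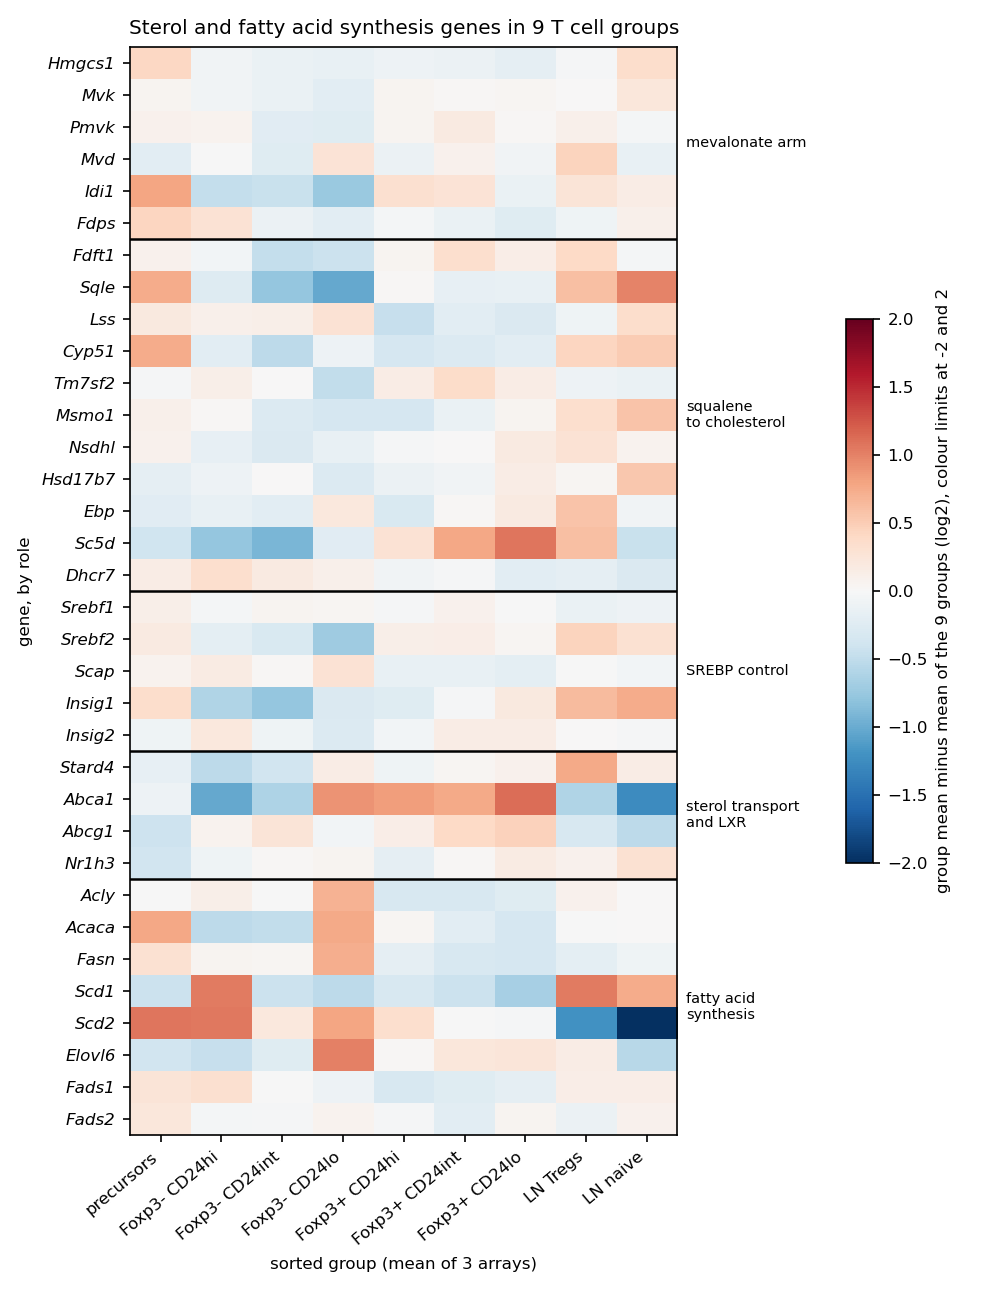
Rows are the 34 genes by role and columns the 9 sorted groups; colour is the group mean minus the mean of the 9 groups (log2). Acly, Fasn and Elovl6 are highest in Foxp3- CD24lo cells, Sc5d and Abca1 in Foxp3+ CD24lo cells, and Scd2 is lowest in lymph node naive cells (8.36) and highest in precursors (11.65).

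Called members went in both directions in most comparisons. Foxp3+ against Foxp3- cells gave 5 higher and 6 lower members at CD24hi (18.0% of all genes called), 7 higher and 2 lower at CD24int (15.3% of all) and 6 higher and 7 lower at CD24lo (21.0% of all). Lymph node Tregs against naive cells gave 8 higher and 0 lower (12.4% of all), or 8 higher and 1 lower (Lss) with the replicate block. The median difference of the 34 members was -0.01, 0.19, -0.02 and 0.04 in these comparisons, beside 0.00, -0.01, -0.01 and -0.04 over all genes. The count at CD24hi was 7 without Foxp3- replicate 3, the array with liver transcripts, and the count at CD24int was 5 and 4 without Foxp3- replicate 1 or 2. In lymph node it was 5 without naive replicate 1 or 2 and 4 without Treg replicate 3.

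In Foxp3+ cells maturation gave counts of called members near the share over all genes. They numbered 0 from CD24hi to CD24int (0.286% of all genes), 0 from CD24int to CD24lo (0.0165% of all) and 1 from CD24hi to CD24lo (3.10% of all). By limma without adjustment, 3, 0 and 6 of the 34 had p under 0.05, and a fit with replicate number as a block called 0, 0 and 5. In Foxp3- cells 1 member fell from CD24hi to CD24int (5.01% of all), 9 rose and 1 fell from CD24int to CD24lo (12.0% of all), and 6 rose and 4 fell from CD24hi to CD24lo (16.7% of all). With replicate number as a block these counts were 4, 15 and 18. The shares of all genes are from the fit without the block, so the block counts cannot be set against them. The difference in change between the classes (interaction) was called for 0 members at the early step (1.54% of all), where 5 had an unadjusted p under 0.05 and the block fit called 3, and for 5 members over the whole of maturation (8.54% of all). Leaving out Foxp3- CD24int replicate 3 gave 2 members at the early step of Foxp3- cells and 1 in its interaction. Without Foxp3- CD24hi replicate 3, the array with liver transcripts, 8 members in place of 10 were called from CD24hi to CD24lo in Foxp3- cells.

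Precursors against Foxp3- CD24hi cells gave 6 higher and 1 lower member (9.11% of all), and Foxp3+ CD24hi cells against precursors gave 3 higher and 8 lower (16.0% of all). Lymph node Tregs against Foxp3+ CD24lo thymocytes gave 2 higher and 3 lower (5.93% of all). With the replicate block 12 members were called, for which no share of all genes was taken. Lymph node naive cells against Foxp3- CD24lo thymocytes gave 7 higher and 8 lower (14.6% of all), 15 of 34 in all. Several of these comparisons share arrays, so their values are set side by side as separate measurements.

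In the mevalonate arm, Idi1, the isomerase that makes dimethylallyl diphosphate, varied most. It read 8.10, 8.03 and 8.46 in precursors, 6.66, 6.91 and 7.24 in Foxp3- CD24hi cells, and 7.42, 7.45 and 8.31 in Foxp3+ CD24hi cells. Every precursor array lay above every Foxp3- array, by 1.26 ± 0.27 on average (log2 difference and SE; limma adjusted p = 0.00284). Foxp3+ CD24hi cells exceeded Foxp3- CD24hi cells by 0.79 ± 0.27 (adjusted p = 0.046), and this call was lost without Foxp3- replicate 1 or 2 or Foxp3+ replicate 3 (0.50 to 0.78). At CD24int and CD24lo the differences were 0.71 and 0.62 and did not pass (adjusted p = 0.092 and 0.127).

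Lymph node naive cells read 7.55, 7.80 and 7.30 for Idi1 and Foxp3- CD24lo thymocytes 6.24, 6.66 and 7.08, with no overlap and a difference of 0.89 ± 0.27. That call was lost without naive replicate 1 or 2 or CD24lo replicate 1 or 2 (0.68 to 0.90). Mevalonate kinase (Mvk) was higher in the same comparison by 0.44 ± 0.14, a call that held in the absence of CD24lo replicate 3 but not of any of the other 5 arrays (0.33 to 0.46). Mevalonate diphosphate decarboxylase (Mvd) was 0.60 ± 0.17 higher in lymph node Tregs than in naive cells, and was not called without naive replicate 1 or 2 or Treg replicate 3 (0.41 to 0.60). Mvd also rose by 0.52 ± 0.17 from CD24int to CD24lo in Foxp3- cells, a call lost without CD24int replicate 1 or 2 or CD24lo replicate 2 or 3 (0.39 to 0.57). Phosphomevalonate kinase (Pmvk) was higher by 0.40 ± 0.12 in Foxp3+ CD24int cells, and was not called without replicate 1 of either class (0.31 and 0.33). Hmgcs1 and farnesyl diphosphate synthase (Fdps) were called in no comparison by the main fit, which used neither the replicate block nor alternative processing. Some alternatives called them, such as averaged probe sets for Hmgcs1 in Foxp3+ CD24hi cells against precursors (-0.49). With the block, Hmgcs1 was higher in precursors than in Foxp3- CD24hi cells (0.48) and lower in Foxp3+ CD24hi cells than in precursors (-0.51). It was also higher with the block in lymph node naive cells than in Foxp3- CD24lo cells (0.50). Fdps was lower with the block in Foxp3+ CD24hi cells than in precursors (-0.48) and than in Foxp3- CD24hi cells (-0.33). It fell with the block from CD24hi to CD24lo in Foxp3- cells (-0.49). Hmgcs1 averaged 8.88 to 9.48 over the groups, with its highest mean in precursors.

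Of the 11 enzymes from squalene to cholesterol, 4 were higher and 1 lower in Foxp3+ than in Foxp3- CD24lo cells (21.0% of all genes called). Their median difference was 0.39 beside -0.01 over all genes. Sqle, a rate-limiting oxygenase, was low in the thymic Foxp3- groups and high in precursors and lymph node. It read 6.90, 6.58 and 7.36 in precursors, 5.86, 5.85 and 6.14 in Foxp3- CD24hi cells, and 4.94, 5.15 and 5.44 in Foxp3- CD24lo cells. Lymph node naive cells read 7.22, 7.38 and 7.01. All naive arrays lay above all Foxp3- CD24lo arrays, by 2.02 ± 0.22 (adjusted p = 2.07e-07), which is a 4.06-fold difference. Precursors exceeded Foxp3- CD24hi cells by 1.00 ± 0.22.

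Within Foxp3- cells Sqle fell by 0.77 ± 0.22 from CD24hi to CD24lo, a call lost without CD24lo replicate 1 (-0.65) or CD24hi replicate 3 (-0.67). Over the same span, where 16.7% of all genes were called, 5 of 7 double-positive thymocyte markers fell (median -1.27). Their summed intensity went from 856 to 962 down to 202 to 331, and their part in the falls of Sqle, Srebf2, Tm7sf2 and Fads1 was not tested. Foxp3+ CD24lo cells read 5.83, 6.00 and 6.36, above every Foxp3- CD24lo array, a difference of 0.88 ± 0.22 (adjusted p = 0.00383). Lymph node Tregs read 6.98, 6.62 and 6.83, which was 0.75 ± 0.22 above Foxp3+ CD24lo cells, but this call was kept in the absence of CD24lo replicate 3 alone (0.63 to 0.84 without each of the other 5 arrays). Foxp3+ CD24hi cells were 0.71 ± 0.22 below precursors, a call lost without precursor replicate 1 or 3 or Foxp3+ replicate 2 (-0.73 to -0.49).

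Cyp51, the sterol 14-demethylase, read 6.85, 6.62 and 7.49 in precursors, 5.95, 5.87 and 6.26 in Foxp3- CD24hi cells and 5.70, 5.69 and 6.33 in Foxp3+ CD24hi cells. Precursors lay above both, by 0.96 ± 0.21 over Foxp3- cells, and Foxp3+ cells lay 1.08 ± 0.21 below precursors (adjusted p = 0.00296 and 0.000639). Cyp51 did not differ detectably between Foxp3+ and Foxp3- cells at any CD24 level (differences of -0.12, 0.25 and -0.11, each with SE 0.21). Precursor arrays also held more of the 7 double-positive thymocyte markers: 5 were higher than in Foxp3- CD24hi cells, where 9.11% of all genes were called. Their summed intensity was 1148 to 2884 in precursors against 856 to 962. Of 5 natural killer and NKT cell markers 3 were higher there too (median 1.79), with a summed intensity of 434 to 633 against 103 to 145. The part of either kind of cell was not tested for any precursor value given here, such as those of Idi1, Sqle, Cyp51, Insig1 and Acaca.

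Sc5d, which makes the C5 double bond late in the pathway, was the sterol enzyme called higher in Foxp3+ cells at each CD24 level. It read 7.97, 8.49 and 8.63 in Foxp3+ CD24hi cells against 7.20, 7.12 and 7.57 in Foxp3- cells, a difference of 1.06 ± 0.21. At CD24int it read 8.30, 9.08 and 9.16 against 7.08, 7.04 and 7.36, a difference of 1.69 ± 0.21 (adjusted p = 1.45e-06). The classes did not overlap at either level. At CD24lo the Foxp3+ arrays were 8.84, 9.37 and 9.23 and the Foxp3- arrays 7.63, 7.85 and 8.06, a difference of 1.30 ± 0.21. Lymph node Tregs read 8.55, 8.62 and 8.83 and naive cells 7.64, 7.69 and 7.57, a difference of 1.03 ± 0.21. All 4 of these calls were kept when any compared array was left out.

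Sc5d was also the member called across maturation of Foxp3+ cells, 0.78 ± 0.21 higher at CD24lo than at CD24hi (adjusted p = 0.0393). That call was lost without CD24hi replicate 1 or 2 or CD24lo replicate 2 or 3 (0.59 to 0.85). With the replicate block Ebp (0.48) and Abcg1 (0.32) were also higher and Acaca (-0.37) and Scd2 (-0.37) lower. In Foxp3- cells Sc5d rose by 0.69 ± 0.21 from CD24int to CD24lo, a call lost without CD24int replicate 1 or 2 or CD24lo replicate 2 or 3 (0.58 to 0.69). From CD24hi to CD24lo in Foxp3- cells Sc5d differed by 0.55 and was not called (limma adjusted p = 0.0811). It was called at 0.69 without CD24hi replicate 3, the array with liver transcripts, and at 0.55 with the replicate block or the compared groups alone. The difference in change of Sc5d between the classes was not called.

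Squalene synthase (Fdft1) read 8.42, 8.40 and 8.47 in Foxp3+ CD24int cells and 7.49, 7.46 and 7.95 in Foxp3- cells, without overlap, and was 0.79 ± 0.14 higher there and 0.58 ± 0.14 higher at CD24lo. In lymph node it was 0.44 ± 0.14 higher in Tregs, a call that stood without naive replicate 1 and fell without any of the other 5 arrays (0.35 to 0.48). Tm7sf2, a sterol C14 reductase, was lowest in Foxp3- CD24lo cells at 6.45, 6.30 and 6.38, with Foxp3+ CD24lo cells at 7.18, 6.89 and 6.96, a difference of 0.63 ± 0.15. It fell in Foxp3- cells by 0.60 ± 0.15 from CD24hi to CD24lo. Its fall of 0.49 ± 0.15 from CD24int held without CD24int replicate 2 but not without any of the other 5 arrays (-0.53 to -0.42).

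Lanosterol synthase (Lss) went the other way from Sc5d. Foxp3+ cells were lower by 0.56 ± 0.16 at CD24hi, not called without Foxp3+ replicate 2 (-0.49) or Foxp3- replicate 3 (-0.51), and by 0.58 ± 0.16 at CD24lo, not called without Foxp3- replicate 1 (-0.49) or Foxp3+ replicate 2 (-0.45). Foxp3+ CD24hi arrays read 6.15, 6.02 and 6.28, below all precursor arrays (6.89, 6.52 and 6.97), by 0.64 ± 0.16. Other, dimmer Lss probe sets (means 5.02 and 4.26) read 0.13 and -0.13 against precursors, none called. Between the classes they read 0.13 and -0.21 at CD24hi and -0.08 and -0.41 at CD24lo, none called. In lymph node Tregs Lss was 0.44 ± 0.16 below naive cells and not called (adjusted p = 0.0857), but it was called with quantile normalization, averaged probe sets, the replicate block or the compared groups alone (adjusted p from 0.00116 to 0.0296). Dhcr7, which completes cholesterol, was 0.41 ± 0.13 lower in Foxp3+ CD24hi cells and was not called without replicate 2 of either class or Foxp3- replicate 3 (-0.40 to -0.26). Ebp, the sterol isomerase, was 0.64 ± 0.19 higher in lymph node Tregs than in naive cells, and was not called without naive replicate 1 or 2 or Treg replicate 3 (0.56 to 0.65).

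Msmo1 and Hsd17b7, which act in removal of the C4 methyl groups, were higher in lymph node naive cells than in Foxp3- CD24lo thymocytes. Hsd17b7 was higher by 0.81 ± 0.18. Lymph node Tregs lay 0.49 ± 0.18 below naive cells in Hsd17b7, not called (adjusted p = 0.0855) except with quantile normalization (0.0338) or the compared groups alone (0.013). Msmo1 read 6.80, 7.14 and 6.94 against 5.33, 6.33 and 6.51, a difference of 0.90 ± 0.28 that was lost without CD24lo replicate 1 (0.54) or naive replicate 2 (0.81) or 3 (0.91). Nsdhl, of the same complex, was called in none of the pairwise comparisons, with group means from 7.67 to 8.26.

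**Figure D2:**
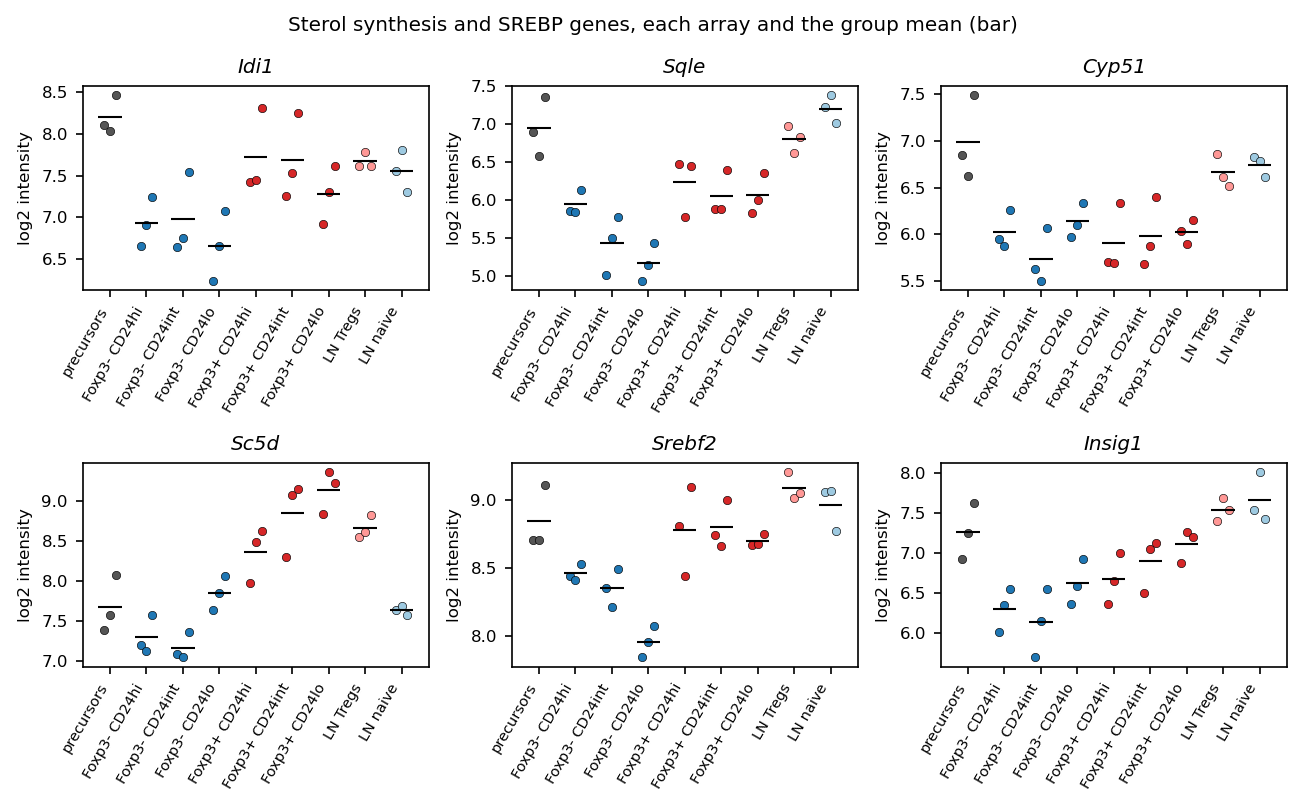
Points are the 3 arrays of each group in replicate order and bars the group mean (log2 intensity), for Idi1, Sqle, Cyp51, Sc5d, Srebf2 and Insig1. Sqle runs from 5.18 in Foxp3- CD24lo cells to 7.20 in lymph node naive cells, and Sc5d is higher in Foxp3+ than in Foxp3- cells at each CD24 level.

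Part of the spread within groups followed the replicate number. Over the 17 measured enzymes of the mevalonate arm and the squalene steps, the median deviation from the group mean was 0.17 on arrays numbered 3, -0.11 on those numbered 1 and -0.07 on those numbered 2. Arrays numbered 3 lay above their own group mean in 8 of 9 groups. The 22 measured cell cycle genes deviated by 0.50 on arrays numbered 1, above the group mean in 9 of 9. No label used here says what the number marks.

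Among the SREBP control genes, Srebf2, the factor that chiefly drives sterol synthesis, was lowest in Foxp3- CD24lo cells. It read 7.84, 7.95 and 8.07 there, 8.44, 8.41 and 8.53 in Foxp3- CD24hi cells and 9.06, 9.07 and 8.77 in lymph node naive cells, 3 levels without overlap. Foxp3- cells fell by 0.51 ± 0.14 across maturation, a call lost without CD24lo replicate 1 (-0.45) or CD24hi replicate 3 (-0.47), and naive cells were 1.01 ± 0.14 above CD24lo cells (adjusted p = 8.1e-06). Foxp3+ CD24lo cells read 8.67, 8.68 and 8.75, which was 0.74 ± 0.14 above Foxp3- cells (adjusted p = 0.000251). At CD24int the difference was 0.45 ± 0.14 and was lost without Foxp3- replicate 1 or 2 or Foxp3+ replicate 3 (0.35 to 0.45). Srebf1, which favours fatty acid genes, ranged over group means by 0.25 and was called in none of the comparisons.

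Insig1, a retention protein and itself a known SREBP target, read 6.92, 7.24 and 7.62 in precursors against 6.01, 6.34 and 6.55 in Foxp3- CD24hi cells, a difference of 0.96 ± 0.23 without overlap. Without precursor replicate 3 it was 0.78 and not called. Lymph node naive cells read 7.53, 8.01 and 7.42 against 6.36, 6.58 and 6.92 in Foxp3- CD24lo cells, a difference of 1.03 ± 0.23. Foxp3+ CD24int cells were 0.76 ± 0.23 above Foxp3- cells with overlapping arrays, and this call was lost without replicate 2 of either class, Foxp3- replicate 1 or Foxp3+ replicate 3 (0.54 to 0.77). Insig2 was called in no comparison by the main fit, which used neither the replicate block nor alternative processing. The block fit called a fall from CD24hi to CD24lo in Foxp3- cells (-0.49, adjusted p = 0.00125). It also called Insig2 higher in Foxp3+ than in Foxp3- CD24lo cells (0.42). Under the block the change differed between the classes at the early step (0.51) and over maturation (0.69). With probe sets averaged, Foxp3+ cells were called higher at CD24int and CD24lo (0.43 each). Some fits without an array also called the CD24lo difference, the Foxp3- fall and the interaction over maturation.

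Scap, the escort protein, was 0.48 ± 0.10 lower in Foxp3+ than in Foxp3- CD24lo cells. It was 0.31 ± 0.10 lower at CD24hi, but a second probe set read 0.53 higher there (adjusted p = 0.011), the mean over probe sets gave 0.11, and the call stood without Foxp3+ replicate 1 and fell without any of the other 5 arrays (-0.33 to -0.27). In lymph node naive cells it was 0.34 ± 0.10 below Foxp3- CD24lo cells, a call lost without CD24lo replicate 1 or 3 or naive replicate 3 (-0.34 to -0.25).

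Abca1, the exporter that loads sterol onto lipoprotein and a known LXR target, set thymic groups far apart. It read 9.88, 9.87 and 9.53 in Foxp3+ CD24hi cells and 8.25, 8.04 and 7.43 in Foxp3- CD24hi cells, a difference of 1.86 ± 0.22 (3.62-fold; adjusted p = 5e-07). At CD24int the arrays read 9.72, 9.83 and 9.50 against 8.64, 8.38 and 7.90, a difference of 1.38 ± 0.22. At CD24lo the classes overlapped, at 9.86, 10.18 and 10.10 against 10.12, 9.86 and 9.51, and the difference of 0.22 ± 0.22 did not pass (adjusted p = 0.602). Foxp3- cells rose by 1.93 ± 0.22 from CD24hi to CD24lo and Foxp3+ cells differed by 0.29 ± 0.22. The change differed between the classes by -1.64 ± 0.31 (adjusted p = 0.000687).

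In lymph node Abca1 was below the CD24lo thymocytes. Tregs read 8.23, 8.58 and 8.17, below every Foxp3+ CD24lo array by 1.72 ± 0.22, and naive cells read 7.62, 7.90 and 7.48, below every Foxp3- CD24lo array by 2.16 ± 0.22. Tregs exceeded naive cells by 0.66 ± 0.22 (adjusted p = 0.0497), a call that stood without naive replicate 2 and fell without any of the other 5 arrays (0.53 to 0.73). The dimmer probe sets read 0.09 and -0.13 for Tregs against naive cells, neither called. Precursors, at 9.12, 9.00 and 8.38, were 0.93 ± 0.22 above Foxp3- CD24hi cells, or 0.69 and not called without Foxp3- replicate 3, the array with liver transcripts. Foxp3+ CD24hi cells were 0.93 ± 0.22 above precursors. On the dimmer probe sets precursors were 0.64 and 0.24 above Foxp3- CD24hi cells, neither called. Foxp3+ CD24hi cells were 0.56 and 0.19 above precursors on them, neither called.

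Abcg1, the partner exporter, was also lower in lymph node than in CD24lo thymocytes. Tregs read 9.95, 10.05 and 10.08 against 10.92, 10.74 and 10.79 in Foxp3+ CD24lo cells, and naive cells 9.93, 9.85 and 9.75 against 10.31, 10.36 and 10.22 in Foxp3- CD24lo cells. The differences were -0.79 ± 0.11 and -0.46 ± 0.11, each without overlap. Foxp3+ exceeded Foxp3- CD24lo cells by 0.52 ± 0.11, and Foxp3+ CD24hi cells exceeded precursors by 0.56 ± 0.11. Precursors were 0.49 ± 0.11 below Foxp3- CD24hi cells, or -0.35 and not called without precursor replicate 3. Nr1h3, which encodes LXR alpha, was dim (group means 4.80 to 5.49) and called in none of the comparisons.

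Stard4, which carries cholesterol between membranes, was highest in lymph node Tregs. They read 8.10, 7.81 and 8.04 against 7.46, 7.37 and 7.27 in naive cells and 7.22, 7.25 and 7.46 in Foxp3+ CD24lo cells, above both by 0.62 ± 0.12 and 0.67 ± 0.12. Foxp3- cells rose from 6.81, 6.66 and 6.62 at CD24hi to 7.38, 7.34 and 7.43 at CD24lo, by 0.69 ± 0.12, and by 0.53 ± 0.12 from CD24int. Foxp3+ cells exceeded Foxp3- cells by 0.44 ± 0.12 at CD24hi, lost without Foxp3+ replicate 1 or 3 or Foxp3- replicate 3 (0.40 in each case). At CD24int they exceeded them by 0.42 ± 0.12, lost without Foxp3+ replicate 1 or 2 or Foxp3- replicate 2 (0.27 to 0.41). Other Stard4 probe sets read 0.21 and -0.41 at CD24hi and 0.24 and -0.31 at CD24int, none called. For the Foxp3- rise they read 0.29 and 0.15 from CD24hi, neither called, and 0.34 (called) and 0.33 from CD24int. Lymph node Tregs exceeded naive cells by 0.30 and 0.40 on them, neither called, and Foxp3+ CD24lo cells by 0.59 (called) and 0.67.

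**Figure D3:**
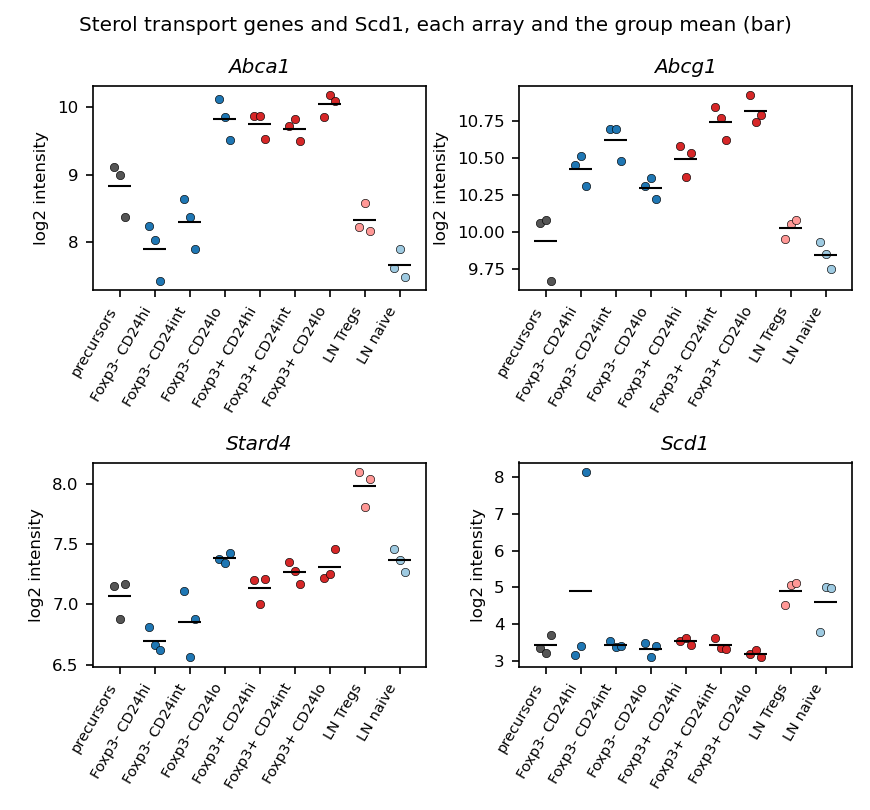
Points are the 3 arrays of each group in replicate order and bars the group mean (log2 intensity), for Abca1, Abcg1, Stard4 and Scd1. Abca1 and Abcg1 are lower in each lymph node group than in the CD24lo thymocytes it is compared with, and the Scd1 point at 8.15 is the Foxp3- CD24hi array with liver transcripts.

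Of the 8 fatty acid synthesis genes, 5 rose from CD24int to CD24lo in Foxp3- cells (12.0% of all genes called). Their median difference was 0.63 beside 0.01 over all genes. At CD24lo 5 of the 8 were lower in Foxp3+ than in Foxp3- cells (21.0% of all genes called), with a median of -0.79 beside -0.01. In that comparison 11 of 22 cell cycle genes were lower too, their part in the result not tested. Acly, which makes cytosolic acetyl-CoA from citrate, read 11.49, 11.52 and 11.47 in Foxp3- CD24lo cells. It read 10.84, 10.74 and 10.76 at CD24int, 11.04, 10.82 and 10.84 at CD24hi, and 10.44, 10.63 and 10.59 in Foxp3+ CD24lo cells. The Foxp3- CD24lo arrays lay above all others of the series. Foxp3- cells rose by 0.71 ± 0.10 from CD24int and by 0.59 ± 0.10 from CD24hi, and Foxp3+ cells were 0.94 ± 0.10 lower at CD24lo (adjusted p = 8.79e-08).

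Acaca, the carboxylase that commits acetyl-CoA to fatty acids, read 8.30, 7.81 and 7.81 in Foxp3- CD24lo cells, 6.93, 6.70 and 6.51 at CD24int and 6.90, 6.53 and 6.62 at CD24hi. It rose by 1.29 ± 0.16 from CD24hi to CD24lo (adjusted p = 8.78e-07). Foxp3+ CD24lo cells read 7.03, 6.65 and 6.97, below all Foxp3- CD24lo arrays by 1.09 ± 0.16. The order was opposite at CD24hi, where Foxp3+ arrays (7.46, 6.94 and 7.35) were 0.57 ± 0.16 higher, a call lost without Foxp3+ replicate 1 (0.46) or Foxp3- replicate 2 (0.49). Precursors read 8.25, 7.71 and 7.98, overlapping Foxp3- CD24lo cells and 1.30 ± 0.16 above Foxp3- CD24hi cells (adjusted p = 2.85e-06), and Foxp3+ CD24hi cells were 0.73 ± 0.16 below precursors. A second Acaca probe set was dim (mean 4.24) and was called in none of these comparisons. It read 0.21 for the Foxp3- rise, and -0.18 at CD24lo and -0.01 at CD24hi between the classes. Precursors differed on it by 0.03 from Foxp3- CD24hi cells, and Foxp3+ CD24hi cells by -0.04 from precursors.

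Fasn, the synthase that builds palmitate, read 9.54, 9.27 and 9.21 in Foxp3- CD24lo cells, 8.72, 8.67 and 8.56 at CD24int and 8.34, 8.19 and 8.29 in Foxp3+ CD24lo cells. The groups did not overlap, with a rise of 0.69 ± 0.11 from CD24int and Foxp3+ cells 1.06 ± 0.11 lower (adjusted p = 8.23e-08). Elovl6, which lengthens palmitate, read 8.26, 7.90 and 8.13 in Foxp3- CD24lo cells, 7.21, 6.62 and 6.70 at CD24int, 6.86, 6.55 and 6.44 at CD24hi and 7.41, 7.41 and 7.17 in Foxp3+ CD24lo cells. It rose by 1.48 ± 0.18 from CD24hi (adjusted p = 4.69e-07), and Foxp3+ CD24lo cells were 0.77 ± 0.18 lower. The order was opposite at CD24hi and CD24int, where Elovl6 was 0.50 and 0.47 higher in Foxp3+ cells. Neither was called by the main fit (limma adjusted p = 0.0501 and 0.074). Both were called with the replicate block (adjusted p = 0.0099 and 0.0164) or without dim genes (0.0303 and 0.0476). At CD24int Foxp3+ cells were lower for Acly by 0.31 ± 0.10, lost without Foxp3+ replicate 1 or any Foxp3- replicate (-0.32 to -0.20), and for Fasn by 0.35 ± 0.11, lost without Foxp3- replicate 1 or 2 or Foxp3+ replicate 2 or 3 (-0.35 to -0.30). In that comparison, where 15.3% of all genes were called, 16 of 22 cell cycle genes were lower (median -1.47). Of 5 natural killer and NKT markers 3 were lower and 1 higher. The part of either list in these values was not tested.

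Over the whole of maturation, the change in Foxp3+ cells differed from that in Foxp3- cells for 4 of the 8 fatty acid genes (8.54% of all genes). The differences in change were -1.66 ± 0.23 for Acaca (-0.37 in Foxp3+ and 1.29 in Foxp3- cells), -1.27 ± 0.25 for Elovl6 (0.21 and 1.48), -0.83 ± 0.16 for Fasn (-0.16 and 0.67) and -0.51 ± 0.14 for Acly (0.09 and 0.59). Adjusted p was 1.18e-05, 0.000997, 0.000986 and 0.0246. On the second, dim Acaca probe set the difference in change was -0.17 and not called. The Acly value was not called without replicate 1 or 3 of Foxp3+ CD24hi, replicate 1 of Foxp3+ CD24lo, replicate 2 or 3 of Foxp3- CD24hi or replicate 2 of Foxp3- CD24lo (-0.49 to -0.45). With genes below the median level left out, 8 members were called in place of 5, the added ones being Stard4 (-0.51), Abcg1 (0.45) and Fads1 (0.56). Cd24a itself changed by -2.72 in Foxp3+ and -4.93 in Foxp3- cells over the same span, and the part of this was not tested.

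**Figure D4:**
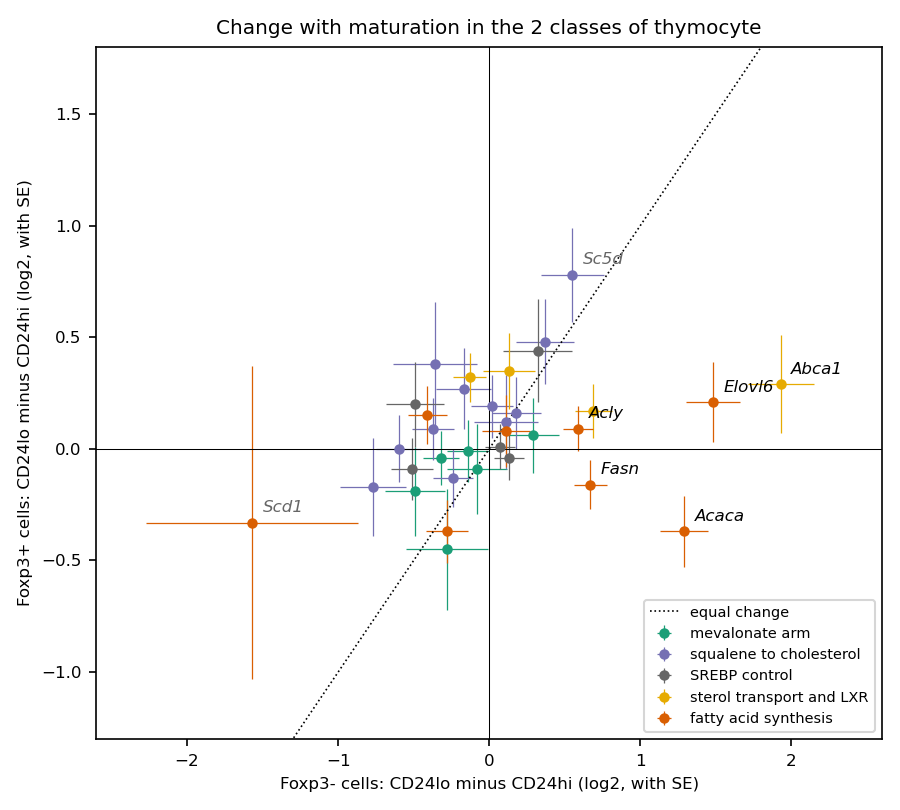
Each point is a gene, with its log2 change from CD24hi to CD24lo in Foxp3- cells (x axis) and in Foxp3+ cells (y axis), bars showing the SE and colour the role. The named points off the dotted line of equal change in black are the 5 genes whose change differed between the classes, such as Acaca at 1.29 and -0.37; Sc5d and Scd1 are named in grey.

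Markers of other cells moved with these values. The summed intensity of 5 natural killer and NKT cell markers was 3476 to 4231 in Foxp3- CD24lo cells, 175 to 450 at CD24int, 103 to 145 at CD24hi, 434 to 633 in precursors, 354 to 645 in Foxp3+ CD24lo cells and 468 to 505 in lymph node naive cells. All 5 markers rose from Foxp3- CD24int to CD24lo cells, a step at which 12.0% of all genes were called. Zbtb16, the factor that defines NKT cells, averaged 10.90 in Foxp3- CD24lo cells, 6.89 at CD24int and 5.18 at CD24hi. Of the 22 cell cycle genes 0 were called higher and 1 lower over the same step (median -0.60), or 1 higher and 8 lower with the replicate block, and 6 adipocyte markers had a summed intensity of 86 to 126 on all arrays. The part of natural killer or NKT cells was not tested for any Foxp3- CD24lo value given here. This covers Acly, Acaca, Fasn, Elovl6, Abca1, Srebf2 and Sqle, and also Tm7sf2, Scap, Abcg1, Stard4 and Scd2.

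Scd2, which desaturates stearate, separated thymus from lymph node. It read 11.68, 11.48 and 11.78 in precursors, 11.31, 11.35 and 11.42 in Foxp3- CD24lo cells and 8.13, 8.33 and 8.64 in lymph node naive cells. The difference between naive and Foxp3- CD24lo cells was -3.00 ± 0.14 (7.98-fold; adjusted p = 1.44e-13). Lymph node Tregs read 9.32, 9.25 and 9.52 against 10.31, 10.53 and 10.80 in Foxp3+ CD24lo cells, 1.19 ± 0.14 lower, and exceeded naive cells by 1.00 ± 0.14. In thymus Foxp3+ cells were below Foxp3- cells by 0.72 ± 0.14 at CD24hi and 0.81 ± 0.14 at CD24lo, and 0.73 ± 0.14 below precursors. Marker sums differed too between Foxp3+ CD24hi cells, Foxp3- CD24hi cells and precursors. They were 443 to 460, 856 to 962 and 1148 to 2884 for double-positive markers. For cell cycle genes they were 10291 to 14473, 15883 to 20783 and 16354 to 26224. For natural killer and NKT markers they were 445 to 870, 103 to 145 and 434 to 633. Their part in any member's difference between these groups was not tested.

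Foxp3- cells dipped in Scd2 at CD24int, with 10.88, 10.55 and 10.92 against 11.58, 11.64 and 11.70 at CD24hi, a fall of 0.85 ± 0.14 (adjusted p = 0.000341). It was the member called at that step, joined under the replicate block by Fdps (-0.40), Fdft1 (-0.40) and Fads1 (-0.33). At the same step, where 5.01% of all genes were called, 3 of 7 double-positive markers fell (median -0.93) and 2 of 5 natural killer and NKT markers rose. All 22 cell cycle genes had positive differences (median 0.84), of which 0 were called without the block and 12 with it. The part of these in the Scd2 value was not tested. The rise of 0.57 ± 0.14 to CD24lo was not called without CD24int replicate 2 (0.46). Acly, Acaca, Fasn and Elovl6 were also lower in naive cells than in Foxp3- CD24lo thymocytes, by 0.69 ± 0.10, 0.75 ± 0.16, 0.81 ± 0.11 and 1.55 ± 0.18. In that comparison 18 of 22 cell cycle genes were lower (14.6% of all genes called). Elovl6 read 7.39, 7.08 and 7.24 in lymph node Tregs and 6.41, 6.47 and 6.75 in naive cells, a difference of 0.69 ± 0.18. In these Tregs 8 of the 22 cell cycle genes were higher (12.4% of all genes called).

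Scd1, the desaturase of liver and fat, lay between 3.09 and 3.71 on the thymic arrays other than the one with liver transcripts, and between 3.79 and 5.12 in lymph node. Lymph node Tregs exceeded Foxp3+ CD24lo cells by 1.70 and naive cells exceeded Foxp3- CD24lo cells by 1.26, neither called over all 27 arrays (adjusted p = 0.205 and 0.285). With the compared groups fitted alone, which leaves out the array with liver transcripts, both were called (adjusted p = 0.000113 and 0.00979). The summed intensity of 6 B cell markers was 203 to 510 in lymph node against 127 to 176 in thymus, and the part of B cells in these values was not tested. Fads1, the delta-5 desaturase, read 7.10, 6.92 and 7.16 in Foxp3+ CD24hi cells, below 7.85, 7.56 and 7.69 in Foxp3- CD24hi cells by 0.64 ± 0.13 and below precursors by 0.60 ± 0.13. It fell by 0.41 ± 0.13 from CD24hi to CD24lo in Foxp3- cells, a call lost without CD24hi replicate 1 or 3 or CD24lo replicate 2 or 3 (-0.41 to -0.33). Fads2 was dim, with group means of 4.37 to 4.80. It was called only with probe sets averaged, as lower in Foxp3+ CD24hi cells than in precursors (-0.40). Foxp3+ CD24hi cells were below precursors for Fasn by 0.49 ± 0.11 and for Acly by 0.31 ± 0.10, the latter lost without precursor replicate 1 or 3 or Foxp3+ replicate 1 or 2 (-0.33 to -0.24). Sc5d was 0.69 ± 0.21 higher in Foxp3+ CD24hi cells than in precursors with overlapping arrays, a call lost without precursor replicate 1 or 2 or Foxp3+ replicate 2 or 3 (0.54 to 0.63).

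**Figure D5:**
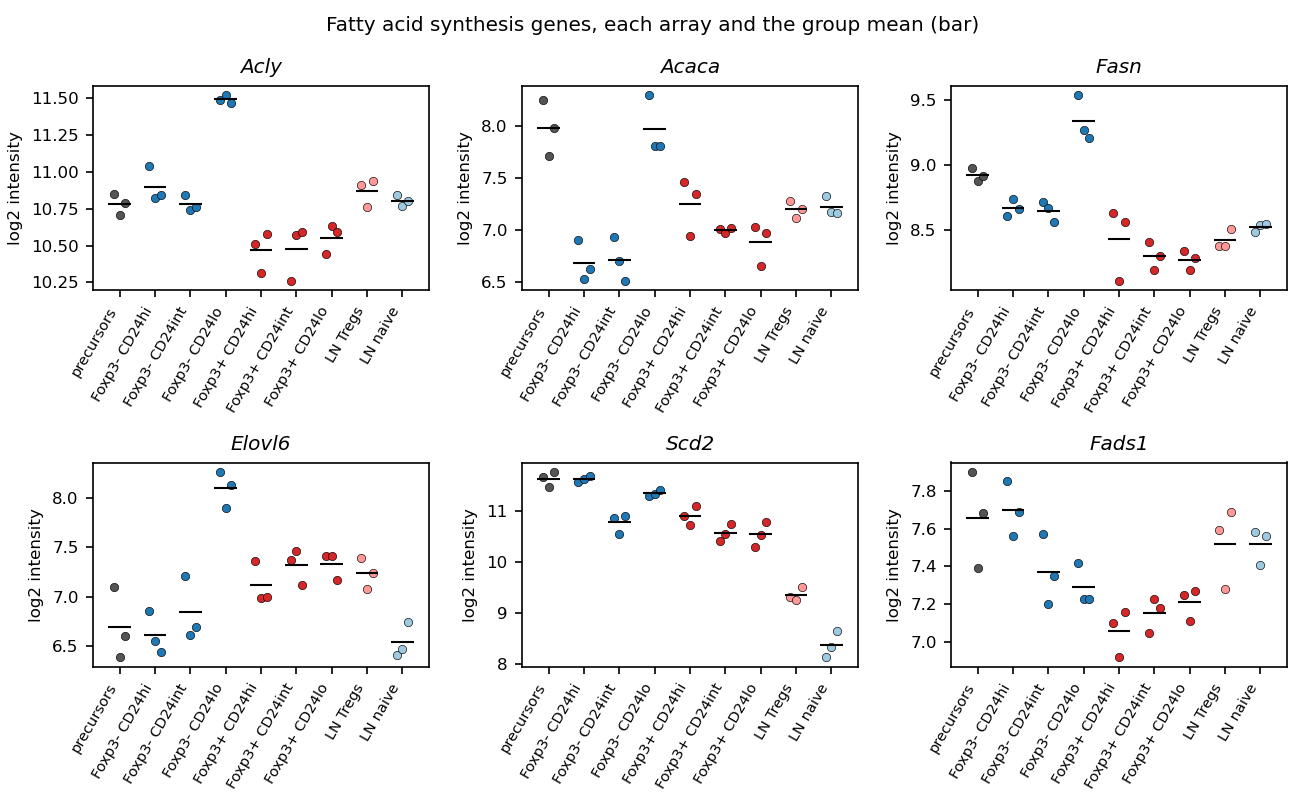
Points are the 3 arrays of each group in replicate order and bars the group mean (log2 intensity), for Acly, Acaca, Fasn, Elovl6, Scd2 and Fads1. Acly, Fasn and Elovl6 are highest in Foxp3- CD24lo cells, and Scd2 runs from 11.65 in precursors to 8.36 in lymph node naive cells.

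Other genes of these pathways were read from a list of 26 further sterol and lipid genes, 22 of them measured. Foxp3+ against Foxp3- cells gave 3 higher and 6 lower at CD24hi, 2 and 6 at CD24int and 3 and 11 at CD24lo. Of all genes 18.0%, 15.3% and 21.0% were called in these comparisons. The median difference at CD24lo was -0.40 beside -0.01 over all genes. Rxra, the partner receptor of LXR, was lower in Foxp3+ CD24lo cells by 1.33, and Mylip, which targets the LDL receptor for degradation, by 1.21, while the elongase Elovl5 was higher by 0.97. From CD24int to CD24lo in Foxp3- cells 6 rose and 3 fell (12.0% of all genes called). Among them were Rxra (1.95), the fatty acid elongase Elovl1 (0.72) and Acss2, which makes acetyl-CoA from acetate (-0.80). The change of Rxra over maturation differed between the classes by -1.65. These comparisons use the Foxp3- CD24lo arrays with high natural killer and NKT markers, whose part in the values was not tested.

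Of 12 fatty acid oxidation and PPAR genes, 2 rose and 0 fell from CD24int to CD24lo in Foxp3- cells, a share of 16.7% that lies near the 12.0% of all genes. They were the carnitine palmitoyltransferase Cpt2 (0.55) and the carnitine carrier Slc25a20 (0.49). Lymph node Tregs exceeded Foxp3+ CD24lo cells in Cpt1a by 1.12. Of 13 mTORC1 and nutrient genes, 3 were higher and 4 lower in Foxp3+ than in Foxp3- CD24lo cells (21.0% of all genes called). The amino acid transporter chain Slc3a2 was lower by 0.77 and the stress sensor Sesn1 higher by 1.22. Acss2 was 1.04 higher in lymph node naive cells than in Foxp3- CD24lo cells and 1.43 lower in lymph node Tregs than in naive cells.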

How the data were processed

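RNA was prepared for Affymetrix 3' arrays from 50 ng per sample, per the labels. The deposited values are intensities on a linear scale that the authors made with RMA, per the submitters' processing notes; its version and settings are not given in the sources used here. They were transformed to log2 with no constant added. RMA shrinks differences of dim genes, and detection calls were not analysed here. Of 45101 probe sets, 34958 had a single symbol in the platform table, 932 several and 9211 none, and the brightest single-symbol probe set stood for each of 18194 genes. limma 3.58.1 in R 4.3.3 fitted 9 group means to 27 arrays, with empirical Bayes moderation, two-sided tests and Benjamini-Hochberg adjustment over all genes, tested on simulated data. The number in the sample descriptions pairs arrays in 11 of 16 comparisons, where every same-numbered pair had correlated deviations above 0.1; this comes from the data alone. The exceptions were CD24int and CD24lo between classes, both interactions, and naive against CD24lo cells. All members could be named, arrays were printed for up to 5 rises and 5 falls of the largest size per comparison (the Abcg1 and Stard4 arrays beyond these were added after their values were seen), and up to 3 genes were named from each companion list. Members, lists and markers were chosen with earlier results of these data known. Marker lists of macrophages (summed intensity 234 to 488 per array), thymic epithelium (152 to 330) erythroid cells (18 to 28) and T cells (4832 to 8732) were also read. Alternatives were quantile normalization, leaving out dim genes, averaging probe sets, a replicate block, compared groups alone and leaving out each array.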

Additional observations from a re-analysis of the deposited data

Results flagged for a closer look

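For 5 genes of the 34 the change from CD24hi to CD24lo differed between Foxp3+ and Foxp3- cells by limma's interaction test, as for 8.54% of all genes. The differences in log2 change were -1.66 for Acaca, -1.64 for Abca1, -1.27 for Elovl6, -0.83 for Fasn and -0.51 for Acly, each rising in Foxp3- cells and not called in Foxp3+ cells by the fit without a replicate block. The Foxp3- CD24lo arrays also held summed natural killer and NKT marker intensities of 3476 to 4231, whose part in these values was not tested. On a second, dim Acaca probe set (mean 4.24) the difference in change was -0.17 and not called.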

How the results depend on the processing

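Of the 106 called member differences, all 106 kept direction and call with replicate number as a block, 97 with quantile normalization, 105 of 105 without dim genes, 84 with all probe sets averaged and 84 with the compared groups fitted alone. The other differences kept their direction except Scap at CD24hi, which turned to 0.11 with probe sets averaged. Leaving out each array in turn, 69 calls were kept throughout and 37 were lost at least once. The replicate block changed the count of called members from 1 to 5 for CD24lo against CD24hi in Foxp3+ cells, 1 to 4 for CD24int against CD24hi and 10 to 18 for CD24lo against CD24hi in Foxp3- cells, 0 to 3 and 5 to 10 for the interactions at the early step and over maturation, and 5 to 12 for lymph node Tregs against Foxp3+ CD24lo cells; it moved no other count by over 1.5 times. Averaging probe sets gave 7 at CD24hi in place of 11. Leaving out dim genes gave 8 for the interaction over maturation. Fitting the compared groups alone gave 7 at CD24hi, 3 at CD24int, 0 for Foxp3+ CD24lo against CD24hi and 7 for Foxp3+ CD24hi against precursors (11). Leaving out an array gave 7 to 11 at CD24hi, 4 to 10 at CD24int, 4 to 6 between lymph node groups, 0 to 1 for Foxp3+ CD24lo against CD24hi, 1 to 2 for Foxp3- CD24int against CD24hi and 0 to 1 for the early interaction. The cause of these shifts was not tested, and the share of all genes called with the block was not analysed here. For 84 called differences the gene had another probe set. Of 166 such values 141 had the same sign, 59 were called the same way and 1 was called the opposite way.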
